A study of Rattus norvegicus with 6 samples.

Results

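The 78 genes described here encode the proteins that start and extend polypeptides and those that charge tRNAs: 56 translation initiation and elongation factors, with their direct regulators, and 22 aminoacyl-tRNA synthetases. They are all genes with a probe set on the Affymetrix Rat 230A array whose symbol begins with Eif1 to Eif6, Eef1 or Eef2, or names a tRNA synthetase in the one-letter form (Nars1, Mars1 and so on, with Eprs1). Where a gene had several probe sets, its brightest one, by mean log2 signal, stood for it, and 10411 genes in all were represented this way. Another 5 probe sets that are annotated to more than 1 gene were not used. AR42J cells, a line from a rat exocrine pancreas tumour, were given 100 nM dexamethasone, a synthetic glucocorticoid, for 48 h (3 cultures) or kept without it for the same time (control, 3 cultures). All cultures had been plated for 24 h in 20% serum and were then kept in 5% serum, and each of the 3 repeats of the experiment started from frozen stocks of the line at passage 29. The question is how dexamethasone changed messenger RNA levels of the translation machinery in these cells, as measured in 1 line at 1 dose and 1 time.

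Protein synthesis starts when eIF2, bound to GTP, brings the initiator tRNA to the small ribosomal subunit, to which eIF3 and the start codon factors are bound. The eIF4 factors recognise the mRNA cap and unwind the leader, and the eIF4E-binding proteins hold the cap-binding protein back until the kinase mTORC1 releases it. Elongation factor eEF1A then delivers charged tRNAs and eEF2 moves the ribosome along, while the synthetases load each tRNA with its amino acid. Acinar cells of the pancreas make secreted protein at a very high rate and depend on all of these steps. Many synthetase genes are known targets of the transcription factor ATF4, which is made when eIF2 is phosphorylated.

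Of the 78 genes, 74 had a mean signal high enough to be tested and 4 did not (Eif2ak2, Eif2ak4, Cars2 and Vars2). With dexamethasone 21 of the 74 rose and 8 fell, at an adjusted p below 0.05 by limma, and 45 did not pass. Of all genes tested 38.4% changed in either direction (37.1% of all 9520 probe sets). The share that rose was 28.4%, against 17.0% of the 7051 genes tested on the array, and the share that fell was 10.8%, against 21.4%. All 3 treated arrays lay above all 3 controls for 24 members (32.4%, against 22.9% of all genes tested) and below them for 10 (13.5%, against 28.1%). Without replicate 1, 2 or 3 the members that rose numbered 11, 16 and 15, and those that fell 4, 3 and 4. Of the members called there, 73.3%, 84.2% and 78.9% were higher, against 41.9%, 44.2% and 41.1% of all probe sets called. The members' median log2 change was 0.12, against -0.04 over all genes tested. A 2-fold change was reached by 2 of the risers (Eif4ebp3 and Eef2k) and 2 of the fallers (Eif4e3 and Hars2). These 4 were singled out after their values were seen. The share of all genes tested that reached 2-fold is not given here, so the size of the members' changes is not compared with it. Signals here are MAS5 signals on a linear scale, listed for replicates 1 to 3 of a group, and log2 changes are dexamethasone minus control with the SE from limma. The 3 arrays of each group limit the precision. Since each array was scaled to a common mean, and cultures were measured whole, fewer cells with a transcript and less of it per cell cannot be told apart.

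**Figure D1:**
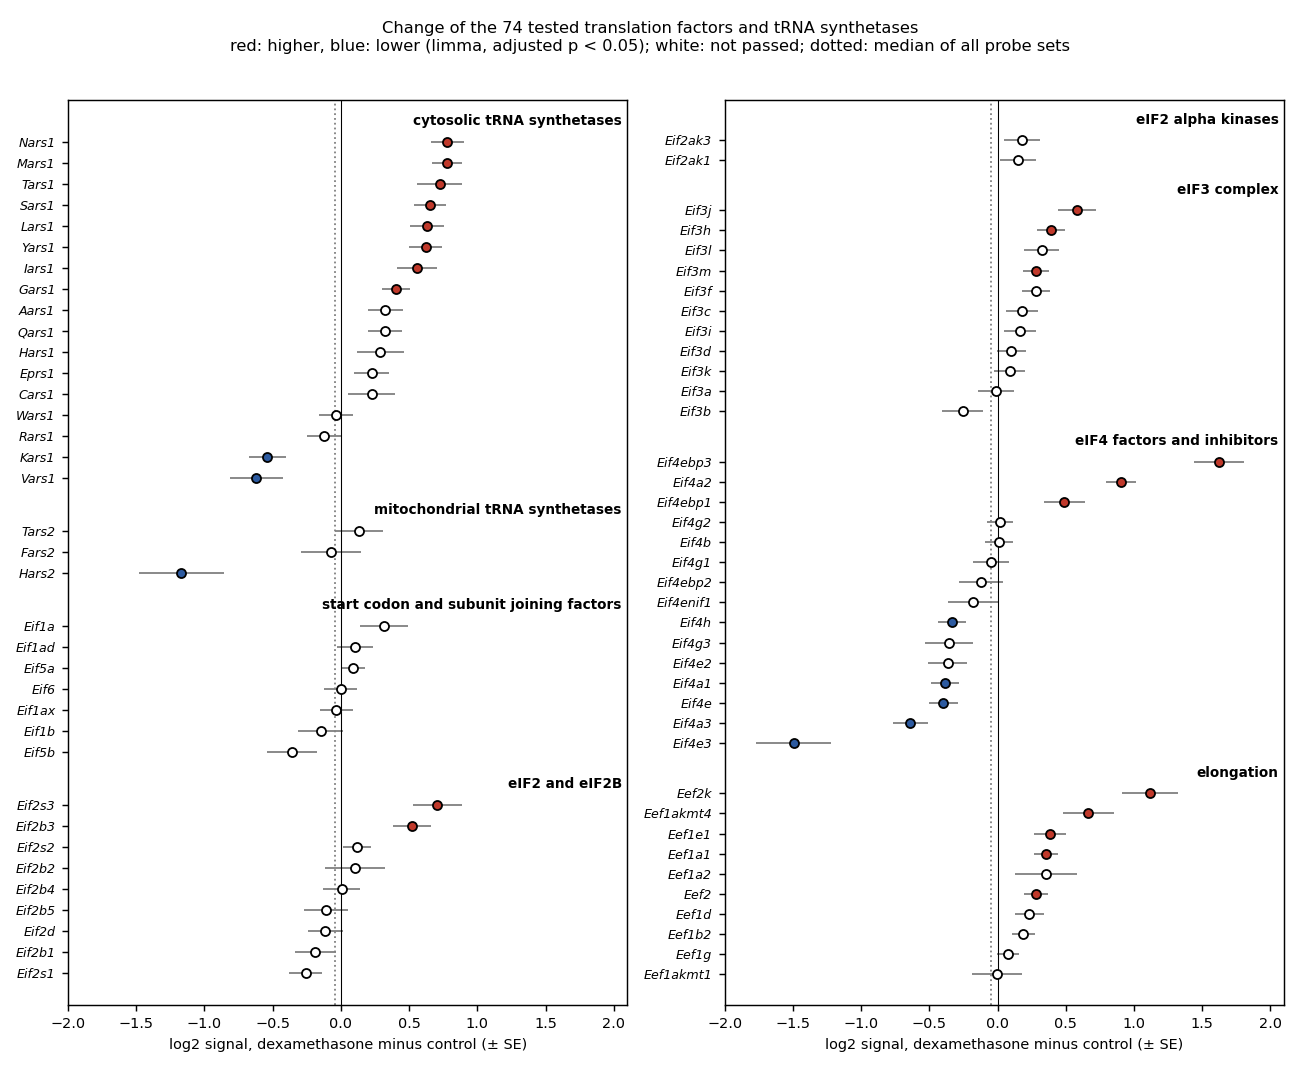
Log2 change in signal, dexamethasone minus control (x axis), of the 74 tested genes grouped by role, with bars of 1 SE from limma over 3 pairs of cultures. Filled points passed an adjusted p of 0.05, 21 higher in red and 8 lower in blue, and the dotted line is the median of all probe sets tested (-0.05). Of the risers 8 are cytosolic tRNA synthetases and 5 are elongation genes, and 5 of the 8 fallers are eIF4 genes.

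All 13 measured acinar markers, such as the digestive enzyme genes Cpa1 and Ctrb1, were above background on all 6 arrays. Their summed signal was 147264 to 163012 in dexamethasone arrays, against 86997 to 102674 in control arrays, and 9 of the 13 rose (69.2%, against 17.0% of all genes tested). Of 15 stromal, endothelial and immune markers, 7 to 8 were above background in dexamethasone arrays and 7 to 9 in control arrays. The background level itself was 100.2, 83.7 and 115.9 on dexamethasone arrays, against 54.5, 97.3 and 51.7 on control arrays, so such counts are not on an equal footing between groups. Their summed signal was 1738 to 1939 in dexamethasone arrays, against 1547 to 1605 in control arrays, and 4 of the 15 were bright enough to be tested. The immune genes Ptprc and Itgam, the stromal gene Lum and the endothelial gene Kdr were above background on no array. The stromal genes Col1a1, Col3a1, Dcn and Acta2 were above it on all 6. Of these, Col3a1 was higher and Col1a1 lower on every treated array than on every control array, and Dcn and Acta2 had overlapping groups. Csf1r, a macrophage gene, was above it on all 6 and did not pass (0.05 ± 0.20), and Lyz2 was above it on 2 of 3 dexamethasone and 3 of 3 control arrays. Pecam1, an endothelial marker, had 176.0, 286.0 and 301.9 with dexamethasone, against 133.9, 132.4 and 95.9 in controls, and rose (1.05 ± 0.27, adjusted p = 0.0143), with a control mean below the filter level. The part of either shift in the results below was not tested. The ratio of 3′ to 5′ signal, a measure of RNA integrity, was 1.19 to 1.69 in dexamethasone arrays and 1.27 to 1.5 in control arrays for beta-actin. Dexamethasone 3 stood apart from the other 2 treated arrays on the second principal component (10.0% of the variance). Calls of the genes named below that were lost or gained without replicate 3 are named as such.

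Cytosolic tRNA synthetases, which charge tRNAs for translation outside mitochondria, held 8 of the 21 risers. Of 17 measured, 8 rose (47.1%, against 17.0% of all genes tested), 2 fell (11.8%, against 21.4%) and 7 did not pass. The median log2 change was 0.33. Nars1, the asparagine enzyme, had signals of 3128, 3019 and 2569.9 in dexamethasone cultures, against 1563, 1869.7 and 1643 in controls. Mars1, the methionine enzyme, which also charges the initiator tRNA, had 2731, 2710.3 and 2519 with dexamethasone, against 1649, 1618 and 1384 in controls. For both genes each treated array lay well above each control array, and the rise was 0.78 for each, with an SE of 0.12 for Nars1 (adjusted p = 0.00125) and 0.11 for Mars1 (adjusted p = 0.000826). Tars1, the threonine enzyme, had 1173, 1083 and 937.9 with dexamethasone, against 532.8, 787.9 and 631.1 in controls (0.72 ± 0.16, adjusted p = 0.00862). Sars1, the serine enzyme, had 1963, 2146 and 1762 with dexamethasone, against 1303, 1342 and 1097 in controls (0.65 ± 0.12, adjusted p = 0.0027). Neither gene's groups overlapped. Lars1, for leucine, had 2657, 2517 and 1922 with dexamethasone, against 1460.4, 1752 and 1345 in controls (0.63 ± 0.12, adjusted p = 0.0044). Yars1, for tyrosine, had 1572, 1736 and 1693 with dexamethasone, against 1032, 1088 and 1132 in controls (0.62 ± 0.12, adjusted p = 0.00391). Yars1 varied little within each group, while the treated arrays of Lars1 spread down to replicate 3, which still lay above every control. Iars1, for isoleucine, had 2458, 2483 and 2405 with dexamethasone, against 1469, 2247 and 1402 in controls (0.56 ± 0.15, adjusted p = 0.0177), so that control 2 came close to the treated arrays. Gars1, which charges glycine tRNAs of both the cytosol and mitochondria, had 4588, 4294 and 3915 with dexamethasone, against 3213, 3438 and 3004 in controls (0.41 ± 0.10, adjusted p = 0.0146).

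**Figure D2:**
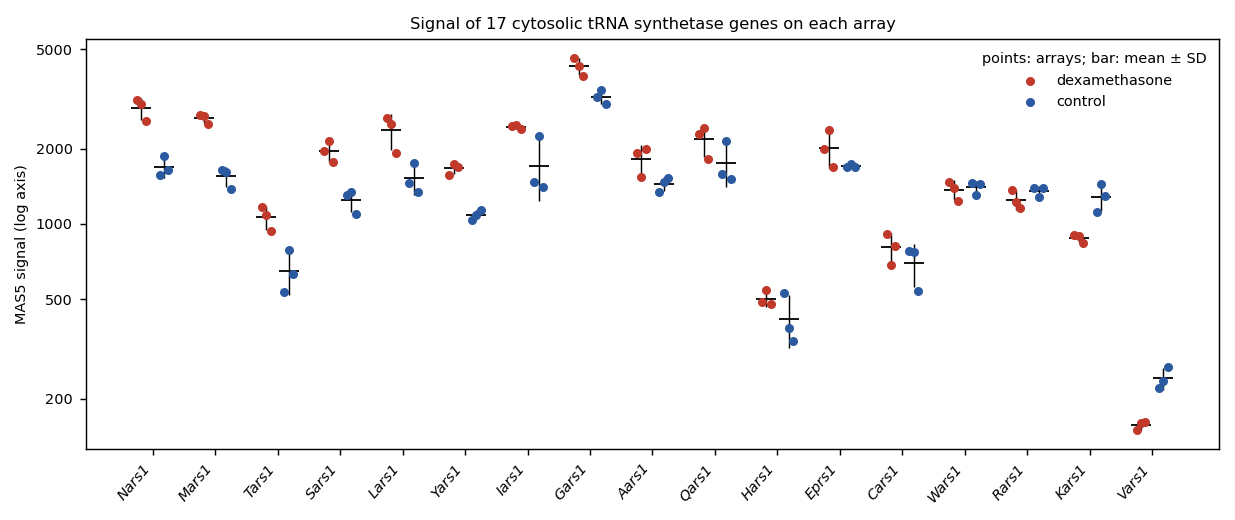
MAS5 signal on a log axis for the 17 cytosolic tRNA synthetase genes, ordered by log2 change, with 3 dexamethasone arrays (red, left) and 3 control arrays (blue, right) per gene and bars for mean ± SD. The groups do not overlap for Nars1, Mars1, Tars1, Sars1, Lars1, Yars1, Iars1 and Gars1, which rose, or for Kars1 and Vars1, which fell. They also do not overlap for Aars1, which did not pass. Of all genes tested on the array, 51.0% have groups that do not overlap.

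The 2 cytosolic synthetases that fell were Kars1 and Vars1. Kars1, whose products serve both the cytosol and mitochondria, had 900.9, 898.5 and 841.4 with dexamethasone, against 1118, 1442 and 1297 in controls (-0.54 ± 0.13, adjusted p = 0.0136). Vars1, the valine enzyme, was the dimmest of the 17, with 149.5, 159.3 and 161.2 with dexamethasone, against 219.7, 236.2 and 267.9 in controls (-0.62 ± 0.19, adjusted p = 0.0343). Their treated and control arrays did not overlap either. Aars1 (alanine) had 1928, 1541 and 1994 with dexamethasone, against 1345, 1466 and 1525 in controls, and did not pass (0.33 ± 0.13, adjusted p = 0.0819) although its groups did not overlap. Qars1 (glutamine) did not pass (0.32 ± 0.12, adjusted p = 0.0677). The changes of Hars1 (0.29 ± 0.17), Eprs1 (0.23 ± 0.13) and Cars1 (0.22 ± 0.17), and those of Wars1 (-0.04 ± 0.13) and Rars1 (-0.12 ± 0.12), did not pass. For Rars1 the 95% interval ran from -0.40 to 0.16, and for Wars1 from -0.32 to 0.25. Of the other 2 probe sets of Cars1, both dimmer, 1 passed (0.55 ± 0.14, adjusted p = 0.0147) and 1 did not (0.40 ± 0.14, adjusted p = 0.0544).

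Scaling arrays to the hybridization controls (spiked transcripts added before hybridization) shifts every change by -0.24 and ended the calls of Gars1, Iars1, Lars1, Sars1, Tars1 and Yars1, but not those of Nars1 and Mars1. Relative to all probe sets the synthetase median was 0.37 higher with the deposited scaling and 0.32 higher with quantile normalization. Gars1 also lost its call with quantile normalization and without the intensity trend of the variance. Leaving out replicate 1 ended the calls of Gars1 (0.35) and Iars1 (0.46), averaging its probe sets ended that of Iars1 too, and leaving out replicate 2 that of Kars1 (-0.47). The call of Vars1 was lost with 75th percentile centring, with no filter on dim probe sets and without any 1 of the 3 replicates (-0.65, -0.64 and -0.56).

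RefSeq promoter windows of the GRCr8 assembly, 250 bases before to 50 after the annotated start, were at hand for 71 of the 78 genes, all except Gars1, Rars1, Eif3h, Eif4b, Eif4ebp1, Eif4e3 and Eef1d. They were searched on both strands for TGATGCAA, the composite element bound by ATF4 and C/EBP factors. Among cytosolic synthetases 7 of 15 windows (46.7%) held it, against 1 of 51 (1.96%) among the factors that are no synthetase and 138 of 19005 (0.726%) over all protein-coding genes. It was present in 5 of the 7 windows of cytosolic synthetases that rose (Iars1, Mars1, Nars1, Tars1 and Yars1). It was also present in 2 of the 8 windows of those that did not rise (Aars1 and Cars1), neither of which had passed. Among the ATF4 target genes listed below, 3 of 21 windows held it. The stretches around the element are shown because 7 of the 15 synthetase windows share it, a feature that played no part in choosing the genes. Each is written 5′ to 3′ on the gene's strand, with the element in capitals, as TGATGCAA or, where it lies on the opposite strand, as TTGCATCA. The Nars1 stretch is chr18:60275783-60275822 (minus strand), that of Mars1 is chr7:65023754-65023796 (minus), that of Tars1 is chr2:62114803-62114855 (minus) and that of Iars1 is chr17:15193653-15193702 (minus). In these 4 the element begins 14 to 27 bases before the start. The Aars1 stretch is chr19:55908344-55908403 (plus), with the element 112 bases before the start. In Yars1 (chr5:146820183-146820212, plus) and Cars1 (chr1:208225334-208225363, minus) the element lies in the transcribed part, from base 39 and from base 18.
Nars1: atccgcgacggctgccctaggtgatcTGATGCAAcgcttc
Mars1: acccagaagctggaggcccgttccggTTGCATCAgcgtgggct
Tars1: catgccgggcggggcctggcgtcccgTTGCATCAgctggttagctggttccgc
Iars1: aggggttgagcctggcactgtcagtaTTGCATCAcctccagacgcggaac
Aars1: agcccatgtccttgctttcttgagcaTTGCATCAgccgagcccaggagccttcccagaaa
Yars1: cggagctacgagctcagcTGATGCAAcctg
Cars1: cggcgccgcggTTGCATCAgattctggaaa

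The one window of a factor with this element was that of Eif2s2, which encodes the beta subunit of eIF2 and did not pass (0.12 ± 0.11, adjusted p = 0.423). A match is only a run of letters and not a measured binding site. The looser form TGATGNAA was in 7 of the 15 cytosolic synthetase windows and in 3.33% of all. The glucocorticoid response element, bound by the receptor that dexamethasone activates, was in 0 of the 71 windows, against 0.363% of all protein-coding genes, which says only that these letters are not in these windows. The E-box CACGTG, bound by Myc and related factors, was in 15 of 71 windows (21.1%), against 7.27% of all, and was found in genes that rose and in genes that fell. Among synthetases it was in the windows of Aars1, Iars1, Tars1 and Vars1. Shown here are the window of Eif4e, a gene that fell (chr2:229740647-229740704, plus), and that of Eef2k, a gene that rose (chr1:184824317-184824374, plus), with the E-box in capitals 80 and 77 bases before the start.
Eif4e: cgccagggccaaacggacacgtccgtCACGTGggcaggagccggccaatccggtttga
Eef2k: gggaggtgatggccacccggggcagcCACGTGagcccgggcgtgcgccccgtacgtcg

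Mitochondrial synthetases, which charge tRNAs inside mitochondria, were dim, and 2 of 5 could not be tested. Hars2, the mitochondrial histidine enzyme, fell (-1.17 ± 0.31, adjusted p = 0.0177), with 177.3, 164.9 and 66.9 in dexamethasone cultures, against 248.3, 299.6 and 299.3 in controls. The lowest value was that of dexamethasone 3, which was not above background, and without replicate 3 the change was -0.67 and the call was lost, as it was without replicate 2 (-1.32) and with no filter on dim probe sets. Its treated mean lay below the filter level, so it entered the test through its controls. Tars2 (0.13 ± 0.18) and Fars2 (-0.07 ± 0.22) did not pass.

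The genes of eIF2 and eIF2B, with Eif2d, held 2 risers among 9 measured (22.2%, against 17.0% of all genes tested). Limma called 0 lower, and 0 were lower at an unadjusted p below 0.05. Their median was 0.01. Eif2s3, the gamma subunit that binds GTP and the initiator tRNA, had 778.0, 1094 and 924.6 with dexamethasone, against 625.9, 480.5 and 602.4 in controls (0.71 ± 0.18, adjusted p = 0.0147). Eif2b3, the gamma subunit of the exchange factor eIF2B, had 1028, 922.3 and 778.8 with dexamethasone, against 671.9, 605.1 and 612.4 in controls (0.52 ± 0.14, adjusted p = 0.017). In both, all treated arrays lay above all control arrays. Eif2s1, the alpha subunit that stress kinases phosphorylate, was lower on every treated array but did not pass, with 1588, 1845 and 1798 with dexamethasone, against 2061, 1969.8 and 2226 in controls (-0.26 ± 0.12, adjusted p = 0.119). The other eIF2B subunits Eif2b1 (-0.19 ± 0.15), Eif2b2 (0.10 ± 0.22), Eif2b4 (0.01 ± 0.14) and Eif2b5 (-0.11 ± 0.16) did not pass. Both calls were lost with hybridization control scaling. Without replicate 2 Eif2s3 was at 0.47 and Eif2b3 at 0.48, and both calls were lost, as was that of Eif2b3 without replicate 1 (0.48).

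Of the 4 kinases that phosphorylate eIF2 alpha, 2 were bright enough to be tested and neither passed, also at an unadjusted p below 0.05. Eif2ak3 (PERK, the kinase of endoplasmic reticulum stress) had 1030.3, 979.6 and 1214 with dexamethasone, against 1004, 876.3 and 953.6 in controls, with a 95% interval of the log2 change from -0.12 to 0.48. Eif2ak1 (HRI, the heme-regulated kinase) had 893.1, 796.5 and 922.6 with dexamethasone, against 816.6, 757.2 and 773.8 in controls, with an interval from -0.15 to 0.45. For both the groups overlapped.

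Factors of start codon selection, subunit joining and ribosome separation gave 0 calls among 7 measured by limma, and 0 at an unadjusted p below 0.05. Eif1ax, a scanning factor, had 1473, 1684 and 1538 with dexamethasone, against 1575, 1571 and 1651 in controls (-0.03 ± 0.12). Eif6, which keeps the large subunit apart, had 2244, 1998 and 1959.9 with dexamethasone, against 1931, 2175 and 2095 in controls, and Eif5a, the hypusine-carrying factor, changed by 0.09 ± 0.09. The 95% interval of the log2 change ran from -0.30 to 0.24 for Eif1ax, from -0.28 to 0.28 for Eif6 and from -0.12 to 0.29 for Eif5a. Eif5b, the subunit joining factor, depended on 1 replicate. It had 583.5, 658.7 and 1048 with dexamethasone, against 923.5, 998.8 and 916.1 in controls, and did not pass (-0.36 ± 0.18, adjusted p = 0.163). Dexamethasone 3 lay above every control and the other 2 treated arrays below them, and without replicate 3 the gene passed and was lower (-0.63, adjusted p = 0.0107).

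Of 11 measured subunits of eIF3, the scaffold on the small subunit, 3 rose (27.3%, against 17.0% of all genes tested) and 8 did not pass. Limma called 0 lower, with 0 lower and 5 higher at an unadjusted p below 0.05. The risers were Eif3j, Eif3h and Eif3m, of which Eif3h and Eif3m were named after their values were seen. Eif3j, a loosely bound subunit, had 2155, 2717 and 2838 with dexamethasone, against 1838, 1705 and 1588 in controls (0.58 ± 0.14, adjusted p = 0.0115). Eif3h had 7965, 7784 and 8045 with dexamethasone, against 5615, 6834 and 5764 in controls (0.39 ± 0.10, adjusted p = 0.0164), and Eif3m changed by 0.28 ± 0.09 (adjusted p = 0.0417). Groups did not overlap for these 3, and the median of the 11 was 0.18. Eif3a, the largest subunit, did not pass (-0.01 ± 0.13, 95% interval -0.31 to 0.29). The eIF3 median relative to all probe sets was 0.22 with the deposited scaling and 0.0065 with quantile normalization, which ended the calls of Eif3h and Eif3m, as did leaving out the intensity trend. Hybridization control scaling ended all 3, and leaving out the filter that of Eif3m. Without replicate 2 Eif3j was at 0.53 and lost its call. Eif3h lost it without replicate 1 (0.33) and without replicate 3 (0.35), and Eif3m without any 1 of the 3 (0.30, 0.31 and 0.23).

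The eIF4 genes moved in both directions, with a median of -0.18. Of 15 measured, 3 rose (20%, against 17.0% of all genes tested), 5 fell (33.3%, against 21.4%) and 7 did not pass. The 15 include the 3 eIF4E-binding proteins described below, so 2 of the 3 risers are inhibitors of cap binding and the other is Eif4a2. The helicase subunit is encoded by the paralogues Eif4a1 and Eif4a2, and these changed in opposite directions. Eif4a2 had 4641, 4353 and 4805 with dexamethasone, against 2802, 2118 and 2481 in controls, and rose by 0.91 ± 0.11 (adjusted p = 0.00032). Eif4a1 had 4694, 5316 and 4769.5 with dexamethasone, against 6499, 6129 and 6701 in controls, and fell (-0.39 ± 0.10, adjusted p = 0.0173). Neither gene's groups overlapped, and the call of Eif4a2 held in all 12 alternatives. Eif4a3, a related helicase of the exon junction complex, had 1666, 1427 and 1376 with dexamethasone, against 2194, 2600.2 and 2169 in controls (-0.64 ± 0.13, adjusted p = 0.00502), and also kept its call in all 12. Eif4h, which stimulates the helicase, fell by 0.33 ± 0.10 (adjusted p = 0.0326), while Eif4b, with the same role, did not pass on its brighter probe set (0.01 ± 0.10) but was higher on the other (0.54 ± 0.10, adjusted p = 0.00395).

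Of the cap-binding genes Eif4e and Eif4e3 fell and Eif4e2 did not pass. Eif4e, the cap-binding protein itself, had 2452, 2382 and 2272 with dexamethasone, against 3200.0, 3003 and 3155 in controls (-0.40 ± 0.11, adjusted p = 0.0184). Its second, much dimmer probe set did not pass (0.15 ± 0.20, adjusted p = 0.604), and averaging both ended the call (-0.13). Eif4e3, an atypical cap-binding relative, had 97.2, 151.5 and 98.8 with dexamethasone, against 384.4, 243.9 and 346.0 in controls (-1.49 ± 0.27, adjusted p = 0.00314). Of its 3 treated arrays 1 was above background, so the size of this fall is uncertain, and its mean passed the filter through the control arrays. Eif4e2, a cap-binding repressor, was lower on all treated arrays and did not pass (-0.37 ± 0.14, adjusted p = 0.0719), but passed with no replicate block (adjusted p = 0.0498). The scaffold gene Eif4g1 (-0.05 ± 0.13) and its relative Eif4g2 (0.02 ± 0.09) did not pass. The stricter filter left Eif4e3 untested, and likewise Eef2k, Eef1akmt4, Hars2 and Vars1.

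Of the inhibitors of cap binding, the eIF4E-binding proteins, 2 of 3 rose (66.7%, against 17.0% of all genes tested). Eif4ebp3 had 1800.0, 1319 and 2629 with dexamethasone, against 590.0, 594.0 and 606.9 in controls, the largest rise of the 74 genes (1.62 ± 0.18, adjusted p = 0.000192). Controls were nearly equal, while treated arrays spread widely, all above every control. Eif4ebp1, which is also a known ATF4 target, had 1273, 1248 and 1177 with dexamethasone, against 778.1, 1141 and 759.9 in controls (0.49 ± 0.15, adjusted p = 0.0324), with control 2 close to the treated arrays. Eif4ebp2 had 751.2, 767.2 and 825.7 with dexamethasone, against 718.9, 1103 and 768.6 in controls, with overlapping groups (-0.12 ± 0.16). The call of Eif4ebp3 held in all 12 alternatives. That of Eif4ebp1 was lost in 5 of them: with hybridization control scaling, without the filter, without the intensity trend, and when replicate 1 (0.38) or replicate 3 was left out (0.42).

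The falls of Eif4a1, Eif4e and Eif4h were lost with 75th percentile centring and with no intensity trend, and that of Eif4h with no filter. Eif4a1 also lost its call without replicate 1 (-0.35) or replicate 3 (-0.34). Eif4e lost it without any 1 replicate (-0.40, -0.43 and -0.36), and so did Eif4h (-0.31, -0.37 and -0.32).

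**Figure D3:**
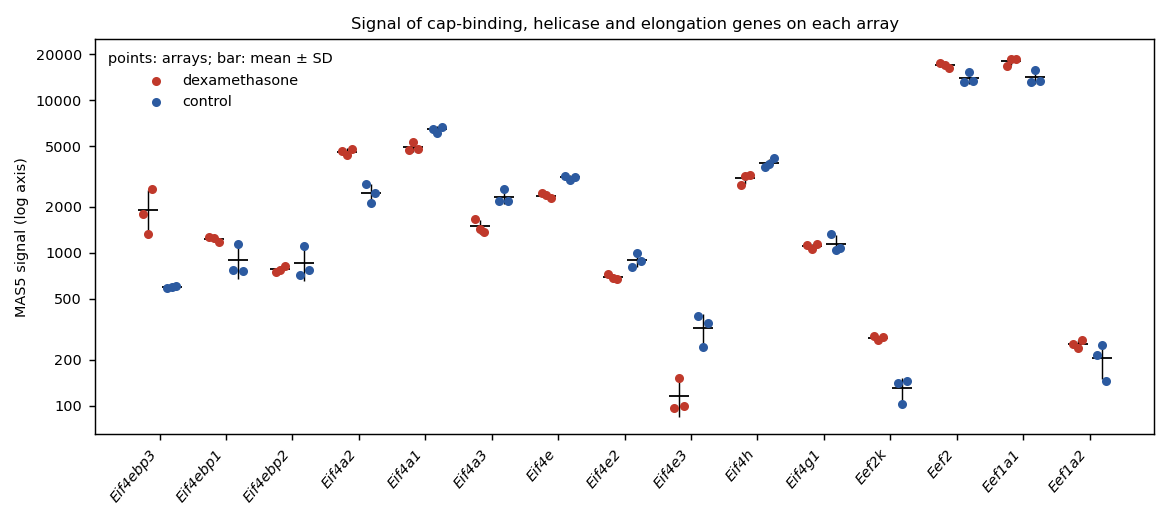
MAS5 signal on a log axis for eIF4E-binding protein, helicase, cap-binding and elongation genes, with 3 dexamethasone arrays (red, left) and 3 control arrays (blue, right) per gene and bars for mean ± SD. Eif4a2 is higher and Eif4a1 lower on every dexamethasone array than on every control array, and Eif4ebp3 and Eef2k are higher on every dexamethasone array.

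Among 10 measured elongation genes, whose median was 0.32, 5 rose (50%, against 17.0% of all genes tested) and 5 did not pass. Limma called 0 lower, against 21.4% of all genes tested, and 0 were lower at an unadjusted p below 0.05. Eef2k, the kinase that phosphorylates and thereby slows eEF2, had 286.0, 270.3 and 280.4 with dexamethasone, against 141.5, 103.1 and 144.5 in controls (1.12 ± 0.20, adjusted p = 0.00305). The treated arrays were close together and above all controls, and a second probe set also rose (0.76 ± 0.23, adjusted p = 0.0291). Its control mean lay below the filter level, so it entered the test through its treated arrays, and averaging its 4 probe sets left it too dim to test. Eef2, its substrate and the translocation factor, had 17471, 16856 and 16245 with dexamethasone, against 13141, 15262 and 13258 in controls (0.28 ± 0.09, adjusted p = 0.0325). Eef1a1, the main tRNA carrier, had 16684, 18466 and 18631 with dexamethasone, against 13199, 15661 and 13293 in controls (0.35 ± 0.09, adjusted p = 0.0118). Groups did not overlap for either. The second probe set of Eef1a1 did not pass (0.15 ± 0.09, adjusted p = 0.222), and signal from near-identical pseudogene copies cannot be told apart from its own.

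Eef1e1, a scaffold of the complex that holds several synthetases together, had 2607, 2156 and 1958 with dexamethasone, against 1863, 1595 and 1658 in controls (0.39 ± 0.12, adjusted p = 0.0298). Eef1akmt4, which methylates eEF1A, rose by 0.66 ± 0.19 (adjusted p = 0.0227). The subunits of the exchange complex that recharges eEF1A with GTP, Eef1b2 (0.19 ± 0.09), Eef1d (0.23 ± 0.11) and Eef1g (0.08 ± 0.08), did not pass, nor did Eef1a2 (0.35 ± 0.23), the form of muscle and neurons. The change of Eef1a2 was 0.90 in pair 3, against 0.23 and -0.07 in pairs 1 and 2. Quantile normalization brought Eef2 to 0.01 and Eef1a1 to 0.06, ended both calls and turned Eef1g to lower (-0.20, adjusted p = 0.0403). Hybridization control scaling ended the calls of Eef2, Eef1a1, Eef1e1 and Eef1akmt4, but not that of Eef2k. Leaving out the intensity trend ended those of Eef2, Eef1a1 and Eef1e1, and leaving out the filter those of Eef2, Eef1a1 and Eef1akmt4. Calls were lost without replicate 1 for Eef2 (0.22), Eef1a1 (0.36) and Eef1e1 (0.34), without replicate 2 for Eef1e1 (0.36), and without replicate 3 for Eef2 (0.28) and Eef1a1 (0.29). That of Eef1akmt4 was lost without any 1 replicate (0.74, 0.60 and 0.65).

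Since the counts depend on how the arrays are scaled, the members were counted under each scaling. With quantile normalization 16 rose and 9 fell, with 75th percentile centring 27 rose and 4 fell, and with hybridization control scaling 5 rose and 13 fell. Of the members called, 72.4% were higher as deposited, against 42.8% of all probe sets called. These shares were 64% against 48.2% with quantile normalization and 87.1% against 57.5% with 75th percentile centring. With hybridization control scaling they were 27.8% against 19%, so all probe sets moved with the scaling too. The 6 genes added to the risers by 75th percentile centring were Aars1 (0.45), Qars1 (0.45), Eif3f (0.40), Eif3l (0.45), Eef1b2 (0.31) and Eef1d (0.36). The 5 added to the fallers by hybridization control scaling were Eif2s1 (-0.50), Eif3b (-0.50), Eif4e2 (-0.61), Eif4g3 (-0.60) and Eif5b (-0.60). The choice of Eif3b, Eif3f, Eif3l and Eif4g3 followed from these values. The median change of all probe sets was -0.05 as deposited and 0.01, 0.08 and -0.29 in these settings. Relative to it, the members' median was 0.17 as deposited and with the 2 scalings that shift whole arrays, and 0.02 with quantile normalization. Those 2 scalings move all genes alike, so a median relative to all probe sets could change only with quantile normalization. There the median of cytosolic synthetases stayed above that of all probe sets (by 0.32, against 0.37 as deposited). That of eIF4 genes stayed below it (-0.19, against -0.13 as deposited). The medians of elongation genes and of eIF3 were 0.06 and 0.0065 above it, against 0.36 and 0.22 as deposited. As deposited, the eIF4 median within pairs 1, 2 and 3 was -0.15, -0.26 and 0.06. Over all genes tested it was -0.03, -0.08 and -0.01.

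**Figure D4:**
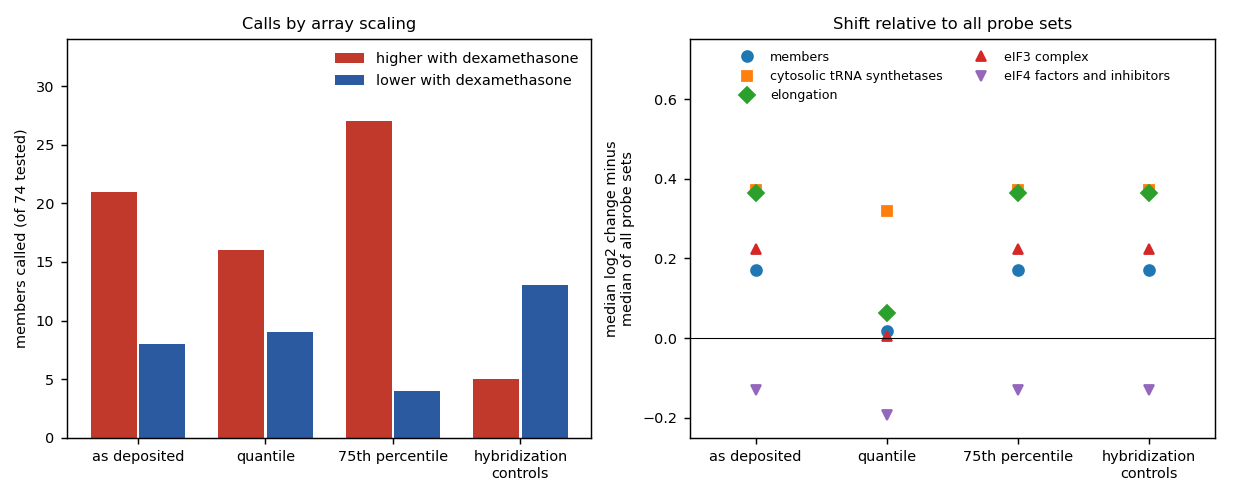
Left, number of the 74 tested genes called higher (red) or lower (blue) with dexamethasone at an adjusted p of 0.05 under 4 scalings of the arrays; right, median log2 change of gene groups minus the median of all probe sets. Calls are 21 higher and 8 lower as deposited, and run from 27 higher and 4 lower with 75th percentile centring to 5 higher and 13 lower with hybridization controls. Of all probe sets called, 42.8% are higher as deposited, 57.5% with 75th percentile centring and 19% with hybridization controls. Cytosolic synthetases lie above the line by 0.37 as deposited and by 0.32 with quantile normalization. The other 2 scalings shift all genes alike and cannot change this difference.

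Of 28 tested genes with other roles in translation (29 on the array), 7 rose, 5 fell and 16 did not pass, with a median of -0.02. The shares were 25% higher, against 17.0% of all genes tested, and 17.9% lower, against 21.4%. Without replicate 2, 1 gene of this list was called lower. Pdcd4, which inhibits the eIF4A helicase, had 1653, 1992 and 1819 with dexamethasone, against 3153, 2805 and 3643 in controls (-0.81 ± 0.13, adjusted p = 0.0016). Ppp1r15a, which directs dephosphorylation of eIF2 alpha, rose by 0.92 ± 0.16, and Mknk1, a kinase of eIF4E, by 0.78 ± 0.13. The enzymes that make the hypusine of eIF5A went opposite ways, with Dohh higher (0.82 ± 0.17) and Dhps lower (-0.70 ± 0.19). Denr, which acts in reinitiation, fell by 0.54 ± 0.15. The termination factors Etf1 (-0.06 ± 0.12) and Gspt1 (-0.11 ± 0.12) and the phenylalanine synthetase subunits Farsa (-0.01 ± 0.15) and Farsb (0.22 ± 0.12) did not pass. Without replicate 2 Dhps was at -0.61 and Denr at -0.56, and both lost their calls, as did Denr with quantile normalization and 75th percentile centring, Dhps without replicate 3 (-0.54) and Denr without replicate 1 (-0.40). Of 6 tested factors of mitochondrial translation (8 on the array), among them Tufm (0.04 ± 0.14), limma called 0, and 0 passed at an unadjusted p below 0.05.

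ATF4 and its known targets outside the synthetases were counted beside them. Of 25 on the array 21 were tested and 4 were too dim on average. Of the 21, 11 rose (52.4%, against 17.0% of all genes tested) and 10 did not pass. Limma called 0 lower, against 21.4% of all genes tested, and 0 were lower at an unadjusted p below 0.05. Their median was 0.45. Among the 4 untested genes Cth, an enzyme of cysteine synthesis singled out for its values, had 919.9, 1047 and 581.3 with dexamethasone, against 10.7, 9.6 and 7.4 in controls, none of which was above background. Atf4 itself had 7101, 6251 and 6749.5 with dexamethasone, against 4169.9, 4211 and 3684 in controls (0.74 ± 0.10, adjusted p = 0.000708). Asns, asparagine synthetase, had 4125, 4892 and 3411 with dexamethasone, against 998.4, 1485 and 818.5 in controls (1.94 ± 0.12, adjusted p = 7.15e-06). Slc7a5, a carrier of large neutral amino acids, rose by 2.31 ± 0.15, whereas Ddit3, a stress transcription factor, did not pass (0.32 ± 0.22, adjusted p = 0.291). Also among the 10 that did not pass were Psat1 (-0.18 ± 0.16), Phgdh (-0.04 ± 0.14), Psph (-0.21 ± 0.16), Shmt2 (-0.08 ± 0.16) and Mthfd2 (0.34 ± 0.18). They lie outside the rule for naming genes and were picked with their values known. Cebpb, which binds the same composite element with ATF4, had 1162, 1723 and 1449 with dexamethasone, against 97.3, 122.3 and 83.4 in controls (3.84 ± 0.17). Its control mean lay below the filter level, so it was tested because of its treated arrays. Herpud1, a gene of the endoplasmic reticulum stress response, rose by 2.62 ± 0.13. Cebpb and Herpud1 are also known to respond to other signals.

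Of 31 tested genes of the mTORC1 pathway (34 on the array), which sets the phosphorylation of the eIF4E-binding proteins, 12 rose, 3 fell and 16 did not pass, with a median of 0.14. The shares were 38.7% higher, against 17.0% of all genes tested, and 9.68% lower, against 21.4%. Without replicate 1, 7 rose, and with hybridization control scaling 6. Ddit4 (REDD1), an inhibitor of mTORC1, had 3102, 4673 and 2614 with dexamethasone, against 768.4, 979.7 and 851.4 in controls (1.96 ± 0.14, adjusted p = 1.69e-05). Sesn1, another inhibitor, rose by 2.81 ± 0.15, and Klf15, a transcription factor induced by glucocorticoids in muscle, by 2.94 ± 0.12. Genes whose products activate mTORC1 at the lysosome were also among the 12 risers: Rraga (0.70 ± 0.14), Lamtor2 (0.62 ± 0.11), Lamtor3 (0.68 ± 0.14), Lamtor4 (0.43 ± 0.13) and Lamtor5 (0.55 ± 0.13). The remaining risers were Tsc1 (0.78 ± 0.16), Nprl2 (0.45 ± 0.13), Flcn (0.52 ± 0.13) and Rps6 (0.30 ± 0.09). The risers from Rraga to Rps6 lie outside the rule for naming genes and were picked with their values known. Akt1 fell by 1.10 ± 0.15 (by 0.51 when its probe sets were averaged), Rragd by 0.83 ± 0.14 and Ulk1 by 0.56 ± 0.16, and the kinase gene Mtor did not pass (-0.32 ± 0.16, adjusted p = 0.143). Ulk1 lost its call with quantile normalization, with 75th percentile centring, and without replicate 1 (-0.54) and without replicate 3 (-0.41). These are messenger RNA levels, and neither protein, phosphorylation nor the rate of translation was measured here.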

How the data were processed

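RNA from 3 dexamethasone and 3 control cultures of AR42J cells was hybridised to 1 Affymetrix Rat 230A array each. The authors deposited 1 linear signal intensity per probe set; per the submitters' processing notes the tools were MAS5 and GCOS, whose versions are not given in the sources used here. Each array's trimmed mean (2% cut at each end) is about 498, so arrays were already scaled.

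From the 15866 non-control probe sets, signals of 0 were set to 0.1 and log2 taken. Probe sets with a mean log2 signal in the lowest 40% (below a signal of 147.6) were left out, and 9520 were fitted with limma 3.58.1 under R 4.3.3, with the replicate number as a block and the prior variance following the signal level. Adjusted p-values are Benjamini-Hochberg over all 9520, with a threshold of 0.05. Symbols came from the platform annotation, updated to RefSeq: 12783 probe sets had 1 symbol, 312 had several and 2771 had none. "Above background" means above the highest of 27 Bacillus control probe sets on that array. This held for 68.3% to 72.7% of probe sets on dexamethasone arrays and 71.3% to 79.5% on control arrays. The fit was tested on simulated data. Promoters were searched with Python 3.11.15.

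The pairing comes from the design text, which gives independent pairs, and the numbers in the titles. Deviations of same-numbered samples from their group means correlated at -0.0951, 0.112 and 0.211 for replicates 1, 2 and 3. The 3 repeats ran over 5 months and started from frozen stocks of the same passage, so p-values measure the spread between repeats of 1 line.

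The members and gene lists were chosen with earlier results of these data known. Members named are the 15 largest rises and up to 15 largest falls among those passing in all 3 pairs, plus a fixed set; other lists name the 3 largest each way and a fixed set.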

Additional observations from a re-analysis of the deposited data

How the results depend on the processing

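The 29 calls among the members kept their direction in each of the 12 alternatives that gave a value, and 7 of them kept the call in each. Direction could not change where only the filter, the replicate block or the intensity trend differed, since the log2 change is then the same. Nor could it change when a replicate was left out, since all 29 moved the same way in all 3 pairs. Of the 29, 18 lost the call when a replicate was left out and 20 under another scaling. With no replicate block 21 members rose and 9 fell, the added one being Eif4e2, and no other call among the members changed. Eef1g, which had not passed, turned to lower with quantile normalization (-0.20). Dim genes are the least certain: Eif4e3 and Hars2 were above background on only 1 and 2 of 3 dexamethasone arrays. Arrays give no counts, and 3 per group limit precision. With hybridization control scaling the values were members (5 higher, 13 lower, median -0.12), all probe sets (718 higher, 3063 lower, median -0.29), cytosolic tRNA synthetases (2 higher, median 0.0827), eIF2 alpha kinases (median -0.0765) and eIF2 and eIF2B (0 higher, 1 lower, median -0.24). In the same setting they were eIF3 complex (0 higher, 1 lower, median -0.0648), eIF4 genes (median -0.42), elongation (1 higher, median 0.0746), start codon factors (1 lower, median -0.24) and eIF4E-binding proteins (1 higher). In the same setting they were ATF4 target genes (1 lower, median 0.20), mitochondrial translation (1 lower), mTORC1 pathway genes (6 higher, median -0.11) and other translation genes (3 higher, median -0.27). With 75th percentile centring the values were members (4 lower, median 0.25), all probe sets (median 0.0782), cytosolic tRNA synthetases (1 lower, median 0.45), eIF2 alpha kinases (median 0.29) and eIF3 complex (5 higher, median 0.30). In the same setting they were eIF4 genes (2 lower), elongation (median 0.44), start codon factors (median 0.12), ATF4 target genes (median 0.57) and mitochondrial translation (1 higher). In the same setting they were mTORC1 pathway genes (median 0.26) and other translation genes (3 lower, median 0.0993). With quantile normalization the values were members (median 0.0277), all probe sets (median 0.00892), eIF3 complex (1 higher, median 0.0154), elongation (3 higher, 1 lower, median 0.0711) and mitochondrial translation (1 higher). In the same setting they were other translation genes (3 lower). With no filter on dim probe sets the values were members (5 lower), all probe sets (median 0.0278), cytosolic tRNA synthetases (1 lower), elongation (2 higher) and mitochondrial tRNA synthetases (0 lower). In the same setting they were eIF4E-binding proteins (1 higher). With a stricter filter (the lowest 50% left out) the values were members (5 lower), cytosolic tRNA synthetases (1 lower), elongation (3 higher), mitochondrial tRNA synthetases (0 lower) and ATF4 target genes (median 0.59). With no intensity trend the values were members (5 lower), eIF3 complex (1 higher), eIF4 genes (2 lower), elongation (2 higher) and eIF4E-binding proteins (1 higher). With probe sets of a gene averaged the values were ATF4 target genes (median 0.34) and mitochondrial translation (1 lower). Leaving out each replicate in turn gave 11 to 16 higher for members, 3 to 4 lower for members, 0 to 1 lower for cytosolic tRNA synthetases, 0 to 2 higher for eIF2 and eIF2B and 1 to 2 higher for eIF3 complex. It also gave 2 to 3 lower for eIF4 genes, 1 to 3 higher for elongation, 1 to 2 higher for eIF4E-binding proteins, 7 to 10 higher for mTORC1 pathway genes and 1 to 4 lower for other translation genes. It also gave 0.35 to 0.45 median for cytosolic tRNA synthetases, 0.14 to 0.23 median for eIF3 complex, 0 to 1 lower for mitochondrial tRNA synthetases, 0.23 to 0.36 median for elongation and 0 to 1 lower for start codon factors. It also gave 0.47 to 0.58 median for ATF4 target genes.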
